A study of Mus musculus with 9 samples.

Results

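The 36 genes described here encode the enzymes that turn glucose into pyruvate, those of the pentose phosphate branch, the carrier that brings pyruvate into the mitochondrion, and the pyruvate dehydrogenase complex with its kinases. They were taken by gene symbol out of 35771 genes in the deposited table. Glucose and lactate transporters and lactate dehydrogenase were not among them and are given as neighbours of the pathway. All 36 passed the filter on low counts, which left 13424 genes in the test.

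Expression was measured by RNA sequencing in 9 libraries of mouse embryonic stem cells (ESCs), with 3 libraries in each of 3 groups. Every group came from ESCs of mixed background that were homozygous for iMOS T1-Myc and carried RERT, which puts Cre recombination under the control of 4-hydroxytamoxifen. In iMOS T1-Myc cells, recombination leaves some cells with additional Myc and others without, and EYFP fluorescence marks the number of added copies. The first group held cells with 2 extra copies of Myc and EYFP, and the second held cells with no extra copy. Both were sorted by EYFP from mosaic cultures that had received 20 µM 4-hydroxytamoxifen for 24 h, and sorting took place 24 h after the drug was taken away. The third group was sorted from uninduced cultures. The treatment text of the labels is repeated for the uninduced samples, so the titles and the design text were used for their group. The samples are called biological replicas. Whether they were separate cultures is not stated, and p-values measure the spread between these samples.

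Glycolysis has a preparatory phase, which spends ATP to split glucose into triose phosphates, and a payoff phase, which turns these into pyruvate and yields ATP and NADH. The pentose phosphate pathway leaves glycolysis at glucose 6-phosphate. Its oxidative arm makes NADPH, and its non-oxidative arm exchanges sugars between ribose 5-phosphate, needed for nucleotides, and glycolysis. Pyruvate that enters the mitochondrion is converted to acetyl-CoA by the pyruvate dehydrogenase complex, which pyruvate dehydrogenase kinases inactivate. Mouse ESCs are known for high glycolytic activity alongside respiration. The transcription factors Myc and HIF are both known to act on genes of glycolysis.

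Library totals ran from 4165286 to 8872303 counts, and the 36 genes held 1.41 to 1.51% of the counts in libraries with 2 extra copies, 1.42 to 1.43% where no copy was added and 1.52 to 1.59% in uninduced ones. Myc stood at 138, 147 and 141 CPM (counts scaled to a common library total after TMM scaling) in the libraries with 2 extra copies, 31.8, 30.6 and 32.4 CPM with no extra copy, and 11.5, 14.1 and 14.2 CPM in uninduced ones. The groups did not overlap, and the exact two-sided permutation test gave p = 0.1 for each pair of groups, the smallest that 3 against 3 libraries allow. The Myc relative Mycn ran the other way, at 126 ± 1.30, 153 ± 2.89 and 188 ± 1.97 CPM in the same order of groups (SD, n = 3 each). All 10 ESC markers checked were expressed, with Pou5f1 at 1053 CPM or more in every library, but several moved with the groups. Of the 10, 5 fell with 2 extra copies against none (Pou5f1, Sox2, Nanog, Klf4 and Tfcp2l1, log2 -0.12 to -0.47) and 0 rose. Against uninduced cells 1 rose and 2 fell with 2 extra copies, and 5 rose and 2 fell with no extra copy. Fibroblast markers summed to 125 to 133 CPM with 2 extra copies, 199 to 224 CPM with no extra copy and 80.8 to 86.0 CPM in uninduced libraries. Of the 7 fibroblast markers tested, Col1a1, Col1a2, Acta2 and Tagln were lower with 2 extra copies than with none, and these 4 and Col3a1 were higher in either induced group than in uninduced cells. Tagln averaged 53.8, 83.1 and 34.5 CPM with 2 extra copies, with none and in uninduced cells, Acta2 23.3, 50.7 and 18.6 CPM, and Col1a2 20.02, 36.4 and 9.99 CPM. Thy1 and Pdgfrb were called in no comparison. Thy1 was highest in uninduced cells, at means of 3.41, 4.09 and 4.99 CPM in the same order of groups. Col3a1 was not called between the induced groups, at 5.45 CPM with 2 extra copies and 4.32 CPM with none. The 3 markers too low to test, Postn, Lum and Dcn, stayed at or below 0.877, 0.141 and 0.510 CPM. The part of the ESC and fibroblast markers in the differences of the 36 genes was not tested, and in bulk samples fewer cells of a type cannot be told apart from less RNA per cell. Replicate 1 with 2 extra copies stood apart from the other 2 libraries of its group, with a chi-square per degree of freedom of 2.61 and 2.97, against 1.36 to 1.80 in the remaining pairs of replicates.

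Levels per unit of length differed widely between the 36 genes. Glyceraldehyde 3-phosphate dehydrogenase, Gapdh, led with 1320 ± 71.2 CPM per kb of exonic length with 2 extra copies, 1260 ± 3.33 with no extra copy and 1320 ± 61.8 in uninduced cells. Pyruvate kinase Pkm came next at 559, 526 and 597 CPM per kb, and phosphoglycerate mutase Pgam1 followed at 466, 419 and 439 CPM per kb in the same order. Aldolase Aldoa, phosphoglycerate kinase Pgk1 and enolase Eno1 completed the 6 highest, so that 5 of these 6 belonged to the payoff phase. Eno1 was taken without the near-identical gene Eno1b, which held 64.2% of the counts of the pair, so its place within the 6 is uncertain. The pentose phosphate enzymes transaldolase, Taldo1, and transketolase, Tkt, ranked 7 and 10. At the other end stood Pfkfb4, which sets the level of the glycolytic activator fructose 2,6-bisphosphate, at 0.630, 0.853 and 0.630 CPM per kb. The carrier subunit Mpc2, neuronal enolase Eno2, the kinase Pdk2 and the regulator Pfkfb3 also stayed below 2 CPM per kb in every group. The ratio of the highest to the lowest group mean was 1.97 for Aldoc and 1.63 for Pfkp, and lower for each of the other 34. When mean annotated transcript length replaced exonic length, 9 of the 10 highest genes were shared.

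**Figure D1:**
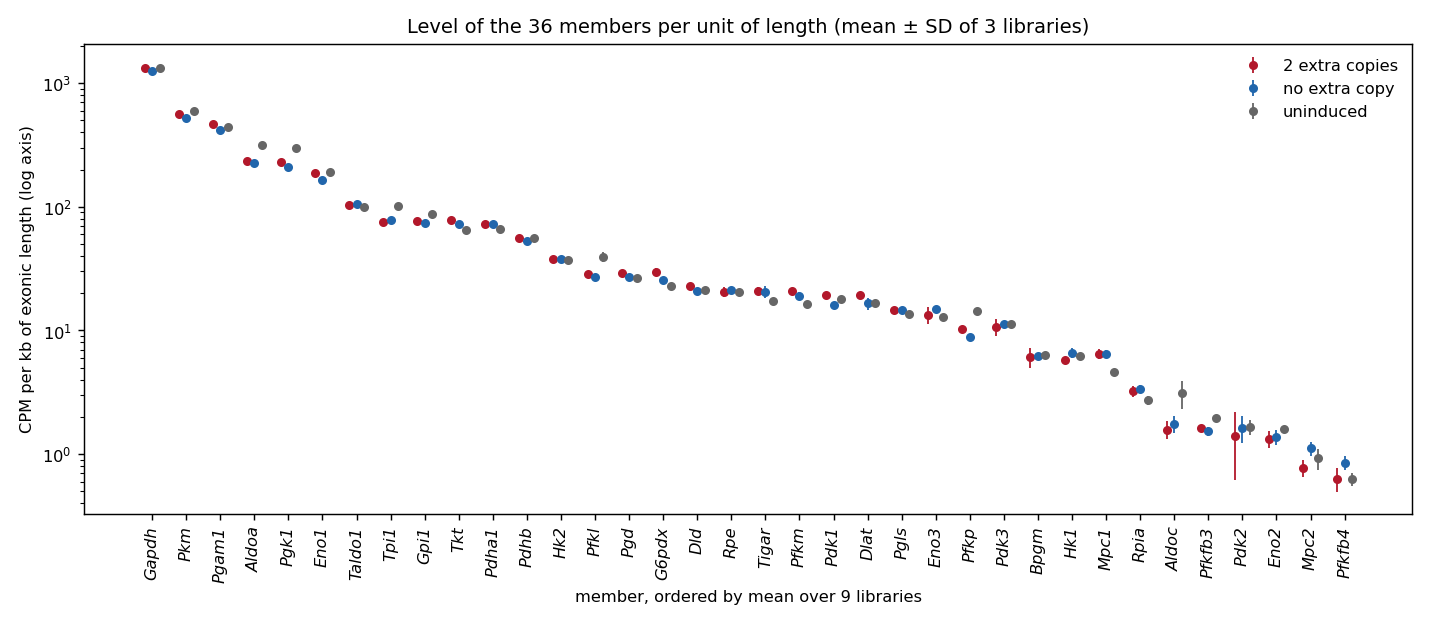
CPM per kb of exonic length (log axis) of the 36 genes, ordered by their mean over 9 libraries, for cells with 2 extra Myc copies, cells with no extra copy and uninduced cells (points, mean; bars, SD of 3 libraries). Levels span from 1300 CPM per kb for Gapdh to 0.704 for Pfkfb4, and the 3 groups lie close together for most genes.

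Promoters were searched for letters that bear on the known regulators. Myc with its partner Max is known to bind the E-box CACGTG, and HIF to bind ACGTG or GCGTG. In the 250 bases before any RefSeq start (GRCm38.p6, both strands), CACGTG was found for 3 of the 36 genes (Pdk2, Pfkfb3 and Pfkm), or 8.33%, against 6.86% of 27025 genes. ACGTG outside CACGTG was found for 9 (Aldoa, Hk2, Pdhb, Pdk3, Pfkfb3, Pfkm, Pgam1, Pgk1 and Pkm), or 25%, against 12.8%, and GCGTG for 23, or 63.9%, against 30.9%. The 27025 genes were not limited to genes expressed here or matched for base content or number of starts. Counted per start, the shares for the 51 starts of the 36 genes and for all 32851 starts were closer. They were 5.88 against 6.02% for CACGTG, 19.6 against 11.4% for ACGTG outside CACGTG and 52.9 against 28.2% for GCGTG. A match is a description of the letters and not evidence of binding. The following sequences are shown because Pgk1, Aldoa, Pkm and Pfkp differed from uninduced cells in both induced groups, while hexokinase Hk2, also with ACGTG, passed the test in no comparison. Capitals mark ACGTG and GCGTG on either strand, so that CACGT and CACGC are the same letters read on the other strand.
Pgk1 (chrX:106186850-106187099, plus strand): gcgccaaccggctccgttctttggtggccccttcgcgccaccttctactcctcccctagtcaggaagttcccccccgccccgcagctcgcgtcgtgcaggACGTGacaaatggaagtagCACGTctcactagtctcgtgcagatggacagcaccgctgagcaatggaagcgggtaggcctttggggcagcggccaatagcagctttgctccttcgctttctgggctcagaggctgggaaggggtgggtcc
Aldoa (chr7:126799255-126799504, minus strand, 1 of 3 starts): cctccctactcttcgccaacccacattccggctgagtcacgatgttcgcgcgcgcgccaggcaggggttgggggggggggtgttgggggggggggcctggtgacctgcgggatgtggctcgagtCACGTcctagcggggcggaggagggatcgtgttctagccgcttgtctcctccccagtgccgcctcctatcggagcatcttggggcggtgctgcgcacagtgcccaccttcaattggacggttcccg
Pkm (chr9:59656977-59657226, plus strand, 1 of 2 starts): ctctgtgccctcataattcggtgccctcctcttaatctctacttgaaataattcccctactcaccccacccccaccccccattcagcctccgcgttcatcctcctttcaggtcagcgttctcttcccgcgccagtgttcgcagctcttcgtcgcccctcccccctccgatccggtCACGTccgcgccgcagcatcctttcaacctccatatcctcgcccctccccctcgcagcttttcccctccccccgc
Pfkp (chr13:6648772-6649021, minus strand): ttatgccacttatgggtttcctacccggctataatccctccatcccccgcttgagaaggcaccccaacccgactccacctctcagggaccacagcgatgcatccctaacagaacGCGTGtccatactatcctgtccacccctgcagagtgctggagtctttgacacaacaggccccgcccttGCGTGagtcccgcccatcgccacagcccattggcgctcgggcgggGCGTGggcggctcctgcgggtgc
Hk2 (chr6:82774455-82774704, minus strand): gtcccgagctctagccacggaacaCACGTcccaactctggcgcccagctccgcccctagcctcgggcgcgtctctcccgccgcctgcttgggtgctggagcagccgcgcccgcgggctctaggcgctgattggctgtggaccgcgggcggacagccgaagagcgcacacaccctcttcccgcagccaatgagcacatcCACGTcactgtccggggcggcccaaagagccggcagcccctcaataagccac
The Pgk1 window held ACGTG 150 and 131 bases before the start, and the Hk2 window held it 226 and 52 bases before. The Aldoa window held 1 match, 126 bases before the start, and the Pkm window 1 match, 75 bases before. Pfkp had no ACGTG and 3 matches to GCGTG. Gpi1 and Tpi1 had neither ACGTG nor GCGTG in the window before their RefSeq start.

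Cells with 2 extra copies were first set against cells with no extra copy, which grew in the same kind of mosaic culture and differ from them in Myc dose. Both groups also differ in EYFP copies, by which they were sorted, and in the fibroblast and ESC markers given above. These differences cannot be told apart from Myc dose in this comparison. A small set of enzymes was modestly higher with 2 extra copies, and none of the 36 was lower by the test. The genes that rose lay in the payoff phase (Pgk1, Pgam1, Eno1), at the entry to the pentose phosphate pathway (G6pdx) and at pyruvate dehydrogenase and its kinase (Dlat, Pdk1), with Pfkp and Tkt in addition. In all, 8 of 36 rose and 0 fell at an adjusted p below 0.05 (22.2%, edgeR quasi-likelihood test with Benjamini-Hochberg adjustment over 13424 genes), where 16.0% of all genes tested were called, 8.30% higher and 7.70% lower. The median log2 change was 0.05 over the 36 genes and -0.01 over all genes tested. Without adjustment, 14 of the 36 had p below 0.05. The libraries of the groups did not overlap for 12 of the 36 in the higher and 3 in the lower direction, where 30.6% of all genes tested did not, 15.4% higher and 15.2% lower.

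Pyruvate dehydrogenase kinase Pdk1 (ENSMUSG00000006494; GRCm38 chromosome 2, 71873224 to 71903858) stood at 153, 147 and 149 CPM with 2 extra copies, against 126, 123 and 131 CPM with no extra copy. The groups did not overlap, and the log2 change was 0.25 ± 0.05 (SE, adjusted p = 0.000209). G6pdx (ENSMUSG00000031400; chromosome X, 74409483 to 74429194), the first enzyme of the pentose phosphate pathway, had 83.97, 95.2 and 95.6 CPM with 2 extra copies, against 78.7, 76.0 and 80.7 CPM with none. Its lowest library with 2 extra copies, replicate 1, still lay above the highest without, and the log2 change was 0.23 ± 0.06 (adjusted p = 0.00562). Pfkp (ENSMUSG00000021196; chromosome 13, 6579768 to 6648777), the platelet-type phosphofructokinase that commits sugar to glycolysis, stood at 143, 133 and 132 CPM against 118, 118 and 119 CPM. It was 1.15-fold higher (log2 0.20 ± 0.05, adjusted p = 0.00388).

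In the payoff phase 3 of 8 genes rose. Pgk1 (ENSMUSG00000062070; chromosome X, 106187100 to 106203699), which makes the first ATP of the phase, had 499, 537 and 520 CPM with 2 extra copies, against 469, 465 and 469 CPM with none (log2 0.15 ± 0.04, adjusted p = 0.00727). Pgam1, which moves the phosphate of 3-phosphoglycerate, had 894, 943 and 935 CPM against 812, 846 and 836 CPM (log2 0.15 ± 0.03, adjusted p = 0.00166). Both genes were higher in every library with 2 extra copies than in any without. Eno1 (ENSMUSG00000063524; chromosome 4, 150236721 to 150248879), which forms phosphoenolpyruvate, had 962, 1034 and 1034 CPM against 885, 912 and 879 CPM (log2 0.18 ± 0.04, adjusted p = 0.00042). The near-identical gene Eno1b held 64.2% of the counts of the pair, so the split between them is uncertain. Their sum was also higher with 2 extra copies, by 0.15 ± 0.03 on the log2 scale (adjusted p = 0.00199). Gapdh, at 5465 ± 294 CPM against 5205 ± 13.8 CPM, and Pkm, at 2797 ± 119 against 2630 ± 26.8 CPM (SD, n = 3 each), did not pass the test (adjusted p = 0.199 and 0.0543). Pkm was called with limma-voom, with the replicate block and with the length trend removed. It was also called with close copies of other genes summed and without uninduced replicate 1.

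Tkt, which carries carbon units between sugars in the non-oxidative arm, had 555, 588 and 591 CPM with 2 extra copies, against 520, 537 and 538 CPM with none (log2 0.12 ± 0.04, adjusted p = 0.0201). Dlat, the acetyl-transferring subunit of pyruvate dehydrogenase, had 95.2, 96.85 and 92.7 CPM against 82.45, 89.2 and 71.2 CPM (log2 0.20 ± 0.06, adjusted p = 0.0238). Neither gene overlapped between the groups, although Dlat varied widely with no extra copy. The other subunits Pdha1, Pdhb and Dld had log2 changes of -0.01, 0.08 and 0.14 and did not pass. The largest negative value was that of Mpc2, at 5.61, 4.88 and 6.66 CPM with 2 extra copies, against 7.14, 8.26 and 9.29 CPM with none (log2 -0.50 ± 0.19, adjusted p = 0.0765). Without replicate 1 with 2 extra copies, the library that stood apart, 13 genes rose, among them Aldoa, Gapdh, Pkm, Pgd and Pdhb. Without replicate 2 with 2 extra copies, 5 rose, and the calls of Pgk1, Tkt and Dlat were lost. The call of G6pdx was lost without replicate 2 with no extra copy, that of Tkt without replicate 3 with 2 extra copies or replicate 1 with none, and that of Dlat without replicate 1 or 3 with none and with DESeq2. When library size replaced TMM scaling, 6 rose, with the calls of Tkt and Dlat lost, and hexokinase Hk1 fell, and all genes tested split into 774 higher and 1360 lower in place of 1114 and 1034.

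**Figure D2:**
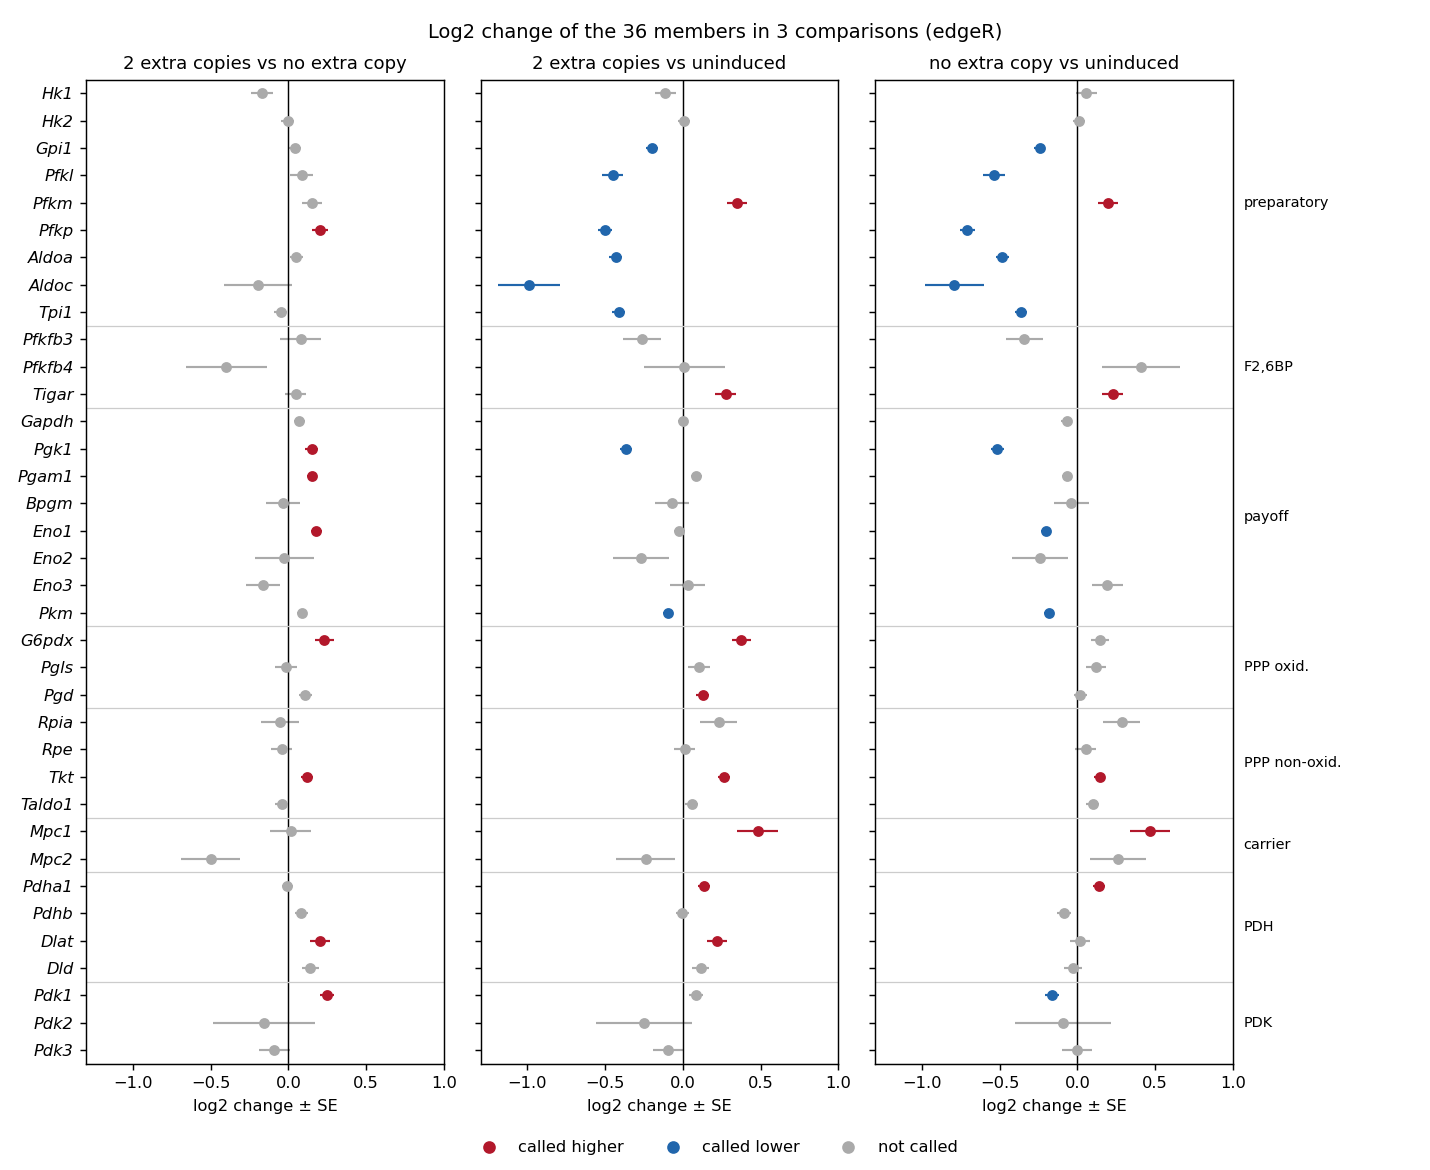
Log2 change ± SE (x axis) of each of the 36 genes, grouped by role, in the 3 comparisons, with genes called at an adjusted p below 0.05 in red (higher) or blue (lower). With 2 extra copies against none all 8 called genes lie right of 0, whereas against uninduced cells the preparatory phase lies mostly left of 0 in both induced groups.

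Cells with 2 extra copies were next set against uninduced cells. Drug treatment, recombination, EYFP copies, growth in a mosaic culture and the fibroblast and ESC markers given above differ along with Myc dose. These cannot be told apart in this contrast. Most genes of the preparatory phase of glycolysis were lower with 2 extra copies, while the entry of the pentose phosphate pathway, transketolase, the pyruvate carrier subunit Mpc1 and parts of pyruvate dehydrogenase were higher. Of the 36 genes 8 rose and 8 fell (44.4%), where 25.0% of all genes tested were called, 12.8% higher and 12.1% lower. The median log2 change was 0.00 over the 36 genes and -0.01 over all genes. Without adjustment, 19 of the 36 had p below 0.05. The groups did not overlap for 12 higher and 11 lower members, where 38.5% of all genes did not, 19.1% higher and 19.4% lower.

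Of 9 preparatory genes 6 fell and 1 rose, with a median log2 change of -0.41. Pfkp had 143, 133 and 132 CPM with 2 extra copies, against 202, 182 and 194 CPM in uninduced cells, with no overlap (log2 -0.50 ± 0.05, adjusted p = 5.15e-10). Liver-type phosphofructokinase, Pfkl, had 179, 201.5 and 193 CPM against 285, 238 and 261 CPM (log2 -0.45 ± 0.07, adjusted p = 0.000637). Muscle-type Pfkm went the other way, at 69.1, 67.8 and 73.9 CPM against 57.2, 53.9 and 54.65 CPM (log2 0.35 ± 0.06, adjusted p = 9.48e-05). All 3 phosphofructokinase genes were thus without overlap between the groups, with opposite signs.

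Other preparatory steps were lower too. Aldoa (ENSMUSG00000030695; chromosome 7, 126795234 to 126800751), which cleaves fructose 1,6-bisphosphate, had 631, 703 and 701 CPM with 2 extra copies, against 943, 864 and 939 CPM in uninduced cells (log2 -0.43 ± 0.04, adjusted p = 1.37e-08). Triose phosphate isomerase, Tpi1 (ENSMUSG00000023456; chromosome 6, 124810586 to 124814296), had 204, 214 and 205 CPM against 282, 263 and 285 CPM (log2 -0.41 ± 0.04, adjusted p = 3.64e-09). The weakly expressed aldolase Aldoc showed the largest difference of the 36, at 6.14, 4.70 and 4.64 CPM against 13.1, 9.58 and 7.85 CPM (log2 -0.99 ± 0.20, adjusted p = 0.00027). Its uninduced libraries were widely spread but did not overlap with those of 2 extra copies. Phosphoglucose isomerase, Gpi1, had 480, 516 and 489 CPM against 585, 552 and 566 CPM (log2 -0.20 ± 0.04, adjusted p = 9.60e-05). Hexokinase, which traps glucose in the cell, did not pass: Hk2 had 224 ± 5.27 CPM against 223 ± 5.59 CPM (log2 0.01 ± 0.04), and Hk1 had a log2 change of -0.11 ± 0.07.

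The payoff phase was mixed. Pgk1 fell to 499, 537 and 520 CPM with 2 extra copies, against 706, 628 and 669 CPM in uninduced cells (log2 -0.36 ± 0.04, adjusted p = 1.19e-08). Pkm fell slightly, at 2659, 2872 and 2859 CPM against 2991, 2892 and 3076 CPM (log2 -0.09 ± 0.03, adjusted p = 0.0271), with its highest value just below the lowest uninduced one. Without replicate 1 with 2 extra copies the log2 change of Pkm was -0.05 and its call was lost. The call was also lost without uninduced replicate 1 or 3, with DESeq2 and without the filter on low counts. A fit of the 6 libraries alone and a run with close copies of other genes summed lost it as well. Pgam1, at 924 ± 26.3 against 870.1 ± 20.1 CPM, was above the uninduced libraries in each of the 3 but missed the threshold (log2 0.09 ± 0.03, edgeR adjusted p = 0.0557). Pgam1 passed with limma-voom (adjusted p = 0.0293) and with the replicate block (0.0376). It also passed with close copies of other genes summed (0.0421) and without replicate 1 with 2 extra copies (0.00404). Gapdh, at 5465 ± 294 against 5462 ± 255 CPM, and Eno1, at a log2 change of -0.02 ± 0.04, did not pass either, nor did Bpgm, Eno2 and Eno3.

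In the pentose phosphate pathway 3 of 7 genes rose and 0 fell. G6pdx had 83.97, 95.2 and 95.6 CPM with 2 extra copies, against 68.2, 70.2 and 73.7 CPM in uninduced cells, which was 1.30-fold higher (log2 0.38 ± 0.06, adjusted p = 9.53e-06). Tkt had 555, 588 and 591 CPM against 471.5, 475 and 497 CPM (log2 0.26 ± 0.04, adjusted p = 1.28e-06). Pgd, which makes the second NADPH of the oxidative arm, rose by less, at 187 ± 6.36 CPM against 171 ± 1.26 CPM (log2 0.13 ± 0.04, adjusted p = 0.0215). The call of Pgd was lost with DESeq2, with library size alone, without the filter on low counts, and without uninduced replicate 2, uninduced replicate 3 or replicate 3 with 2 extra copies. Tigar, known to lower fructose 2,6-bisphosphate and so to favour the pentose phosphate branch, also rose, at 69.2, 79.1 and 80.7 CPM against 64.0, 62.1 and 63.7 CPM (log2 0.28 ± 0.07, adjusted p = 0.003).

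Among the pyruvate genes 3 of 9 rose and 0 fell. Mpc1, a subunit of the mitochondrial pyruvate carrier, had 13.9, 14.6 and 12.0 CPM with 2 extra copies, against 9.56, 9.58 and 9.70 CPM in uninduced cells (log2 0.48 ± 0.13, adjusted p = 0.00761), a call lost with DESeq2. Its partner Mpc2 had a log2 change of -0.24 ± 0.19 and did not pass. Pdha1, the catalytic E1 alpha subunit of pyruvate dehydrogenase, had 267, 272 and 277 CPM against 244, 251 and 247.5 CPM (log2 0.14 ± 0.04, adjusted p = 0.00776). Dlat had 95.2, 96.85 and 92.7 CPM against 76.6, 84.3 and 83.4 CPM (log2 0.22 ± 0.06, adjusted p = 0.00844), a call that was lost without uninduced replicate 1. Exons of the opposite-strand genes Map3k15 and Ikbkg overlapped 16.1% of the exonic length of Pdha1 and 13.6% of that of G6pdx. For Pfkp the overlap was 5.58%, with the opposite-strand gene Pitrm1, which held more counts (1.11e+04 against 8.85e+03 over all libraries). The use of strand in counting is not stated, which leaves the values of these 3 genes uncertain. The same holds for Rpe, with an overlap of 17.9% by the opposite-strand gene Kansl1l. Opposite-strand overlaps of Pfkm, Aldoa, Tpi1 and Gapdh were 1.65% or less.

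**Figure D3:**
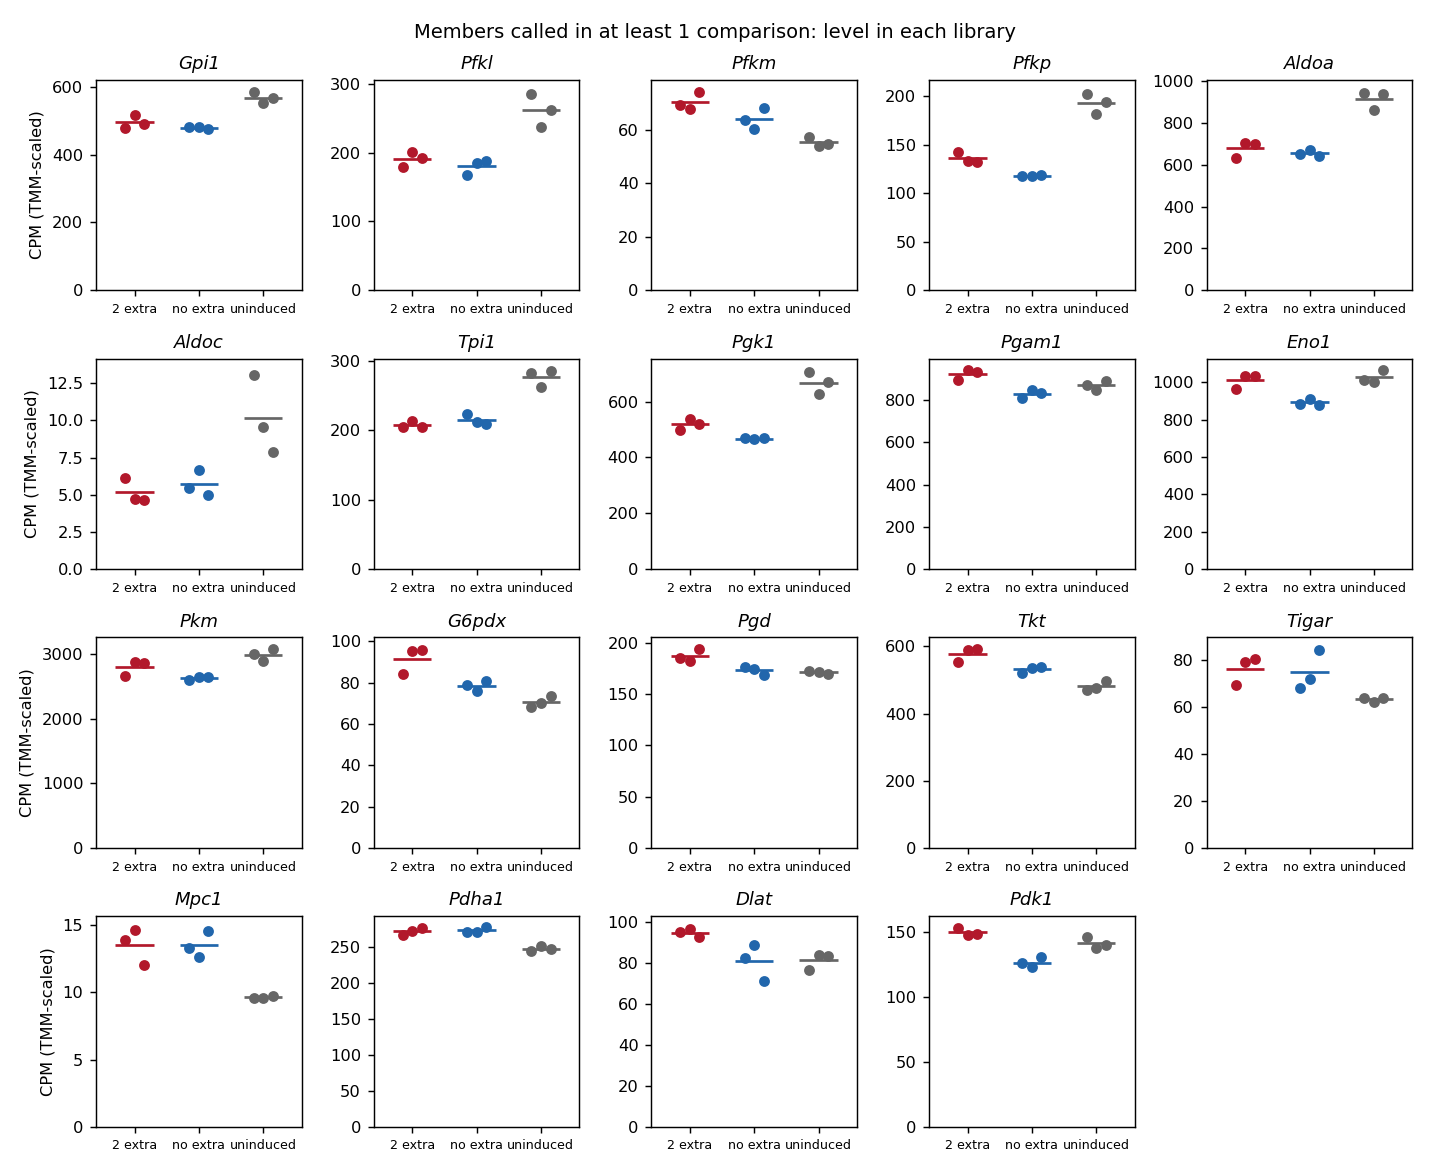
Level in CPM (y axis, from 0) of the 19 genes called in at least 1 comparison, with 1 point per library and a line at the mean of 3, for 2 extra copies, no extra copy and uninduced cells. Pfkl, Pfkp, Aldoa, Tpi1 and Pgk1 show both induced groups below every uninduced library, and the group means of G6pdx and Tkt are highest with 2 extra copies and lowest in uninduced cells.

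Cells with no extra copy were then set against uninduced cells; both lack extra Myc, although Myc itself stood higher in cells with no extra copy. Drug treatment, recombination, growth beside cells with added Myc and the fibroblast and ESC markers given above differ in this comparison too. With the higher Myc level they cannot be told apart in it. This comparison shares its libraries with the other 2 and is not independent of them. Most preparatory genes and Pgk1 were again below uninduced cells, and enolase, pyruvate kinase and Pdk1 were lower as well. Of the 36 genes 5 rose and 10 fell (41.7%), where 13.5% of all genes tested were called, 7.10% higher and 6.39% lower. The median log2 change was -0.02 over the 36 genes and 0.00 over all genes. Without adjustment, 20 of the 36 had p below 0.05. The groups did not overlap for 10 higher and 14 lower members, where 31.5% of all genes did not, 16.1% higher and 15.4% lower.

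The fall with the smallest adjusted p was that of Pfkp, at 118, 118 and 119 CPM with no extra copy, against 202, 182 and 194 CPM in uninduced cells (log2 -0.71 ± 0.05, adjusted p = 3.56e-13). Pgk1 had 469, 465 and 469 CPM against 706, 628 and 669 CPM (log2 -0.51 ± 0.04, adjusted p = 7.28e-12). Aldoa had 650, 672 and 640 CPM against 943, 864 and 939 CPM (log2 -0.48 ± 0.04, adjusted p = 2.67e-09). For each of these 3 genes the gap between the groups was wider than the spread within either.

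Of the remaining preparatory genes Pfkl was at 168, 185 and 188 CPM with no extra copy, against 285, 238 and 261 CPM in uninduced cells (log2 -0.54 ± 0.07, adjusted p = 0.00036). Tpi1 was at 223.5, 212 and 210 CPM against 282, 263 and 285 CPM (log2 -0.36 ± 0.04, adjusted p = 6.69e-08). Gpi1 was at 482, 482 and 475 CPM against 585, 552 and 566 CPM (log2 -0.24 ± 0.04, adjusted p = 9.58e-06). No library with no extra copy reached the uninduced range for any of these 3. Aldoc had 5.44, 6.70 and 5.001 CPM against 13.1, 9.58 and 7.85 CPM (log2 -0.79 ± 0.19, adjusted p = 0.00368), a call that was lost without uninduced replicate 1. Pfkm was higher, at 63.4, 60.3 and 68.1 CPM against 57.2, 53.9 and 54.65 CPM (log2 0.20 ± 0.07, adjusted p = 0.0382), and its call did not hold with DESeq2, with upper-quartile factors, without the filter on low counts, with the length trend removed or without any 1 of 4 libraries. Those were uninduced replicates 2 and 3 and replicates 1 and 3 with no extra copy.

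Later in the pathway, Eno1 had 885, 912 and 879 CPM with no extra copy, against 1014, 1003 and 1064 CPM in uninduced cells (log2 -0.20 ± 0.04, adjusted p = 8.00e-05). Its sum with Eno1b differed by the same amount, at a log2 change of -0.20 ± 0.03 (adjusted p = 3.78e-05). Pkm had 2599, 2640 and 2650.0 CPM against 2991, 2892 and 3076 CPM (log2 -0.18 ± 0.03, adjusted p = 9.11e-05), again without overlap. Pdk1 had 126, 123 and 131 CPM against 146, 137 and 140.1 CPM (log2 -0.16 ± 0.05, adjusted p = 0.0125), a call lost with DESeq2 and on leaving out uninduced replicate 1 or the second replicate of the group with no extra copy. G6pdx did not pass here, at a log2 change of 0.15 ± 0.06 (adjusted p = 0.111).

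The 4 other genes that rose with no extra copy were Tkt, Tigar, Mpc1 and Pdha1. Tkt had 520, 537 and 538 CPM against 471.5, 475 and 497 CPM in uninduced cells (log2 0.14 ± 0.04, adjusted p = 0.00582). Pdha1 had 271, 271 and 277 CPM against 244, 251 and 247.5 CPM (log2 0.14 ± 0.04, adjusted p = 0.00974). Both were above every uninduced library. Mpc1 had 13.3, 12.6 and 14.5 CPM against 9.56, 9.58 and 9.70 CPM (log2 0.47 ± 0.13, adjusted p = 0.016), and Tigar 68.3, 72.1 and 84.3 CPM against 64.0, 62.1 and 63.7 CPM (log2 0.23 ± 0.07, adjusted p = 0.0232). The calls of Mpc1 and Tigar were lost with DESeq2. They were also lost for both genes without uninduced replicate 1, uninduced replicate 2 or replicate 3 with no extra copy, and for Tigar without uninduced replicate 3.

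Of the 36 genes 17 passed the test in none of the 3 comparisons. They were the hexokinases Hk1 and Hk2, the regulators Pfkfb3 and Pfkfb4, Gapdh, Bpgm, Eno2, Eno3, the pentose phosphate enzymes Pgls, Rpia, Rpe and Taldo1, the carrier subunit Mpc2, and Pdhb, Dld, Pdk2 and Pdk3. Pfkfb3, which makes fructose 2,6-bisphosphate, had 12.97, 11.56 and 12.46 CPM with 2 extra copies, 12.41, 11.84 and 10.48 CPM with no extra copy, and 14.9, 14.12 and 15.55 CPM in uninduced cells. Every library of either induced group lay below the uninduced range, but the threshold was missed (log2 -0.26 ± 0.12 with 2 extra copies and -0.34 ± 0.12 with none, edgeR adjusted p = 0.117 and 0.0635). Rpia, which interconverts ribulose and ribose 5-phosphate, averaged 17.3 ± 1.71 CPM with 2 extra copies, 18.13 ± 1.21 CPM with no extra copy and 14.68 ± 1.28 CPM in uninduced cells (SD, n = 3 each), with an adjusted p of 0.151 and 0.106 against uninduced cells. The counts of Pgls are uncertain, since exons of Fam129c overlap 20.6% of its exonic length on the same strand. Fam129c holds 10.1% of the counts of the pair.

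The make-up of isoenzyme families was followed as each gene's share of its family's CPM per kb, without a test. The liver type Pfkl led phosphofructokinase with 46.1, 50 and 47.5% in libraries with 2 extra copies, 47.5, 50.8 and 49.1% without an extra copy, and 57.0, 54.5 and 55.9% in uninduced ones. Pfkm held 35.6, 33.6 and 36.3%, then 35.9, 33.1 and 35.5%, then 22.9, 24.7 and 23.4% in the same order of groups. Both shares separated the induced groups from uninduced cells without overlap and overlapped between the induced groups. With mean transcript length in place of exonic length Pfkl still led, at group means of 60.0, 61.6 and 63.1% in place of 47.8, 49.1 and 55.8%, so the gap of its share to uninduced cells was smaller. On that scale Pfkp ranked above Pfkm, at 26.2 against 13.8% with 2 extra copies. Hk2 held 86.7 ± 0.190% of hexokinase with 2 extra copies, 85.1 ± 1.09% with none and 85.7 ± 0.0457% in uninduced cells (SD, n = 3 each). With mean transcript length its share was lower, at group means of 71.5, 68.9 and 69.8%. Aldoa held 99.0 to 99.3% of aldolase and Eno1 91.1 to 92.9% of enolase as group means. With mean transcript length Eno1 held 96.5 to 97.2%. The near-identical gene Eno1b, with 64.2% of the counts of its pair with Eno1, was not counted in the enolase family. Pdk1 held 61.5 ± 2.09%, 55.8 ± 1.18% and 58.2 ± 0.405% of the 3 pyruvate dehydrogenase kinases, and Pdk3 most of the rest. The Pdk1 share was higher with mean transcript length, at 72.8, 67.9 and 70% in the same order of groups.

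**Figure D4:**
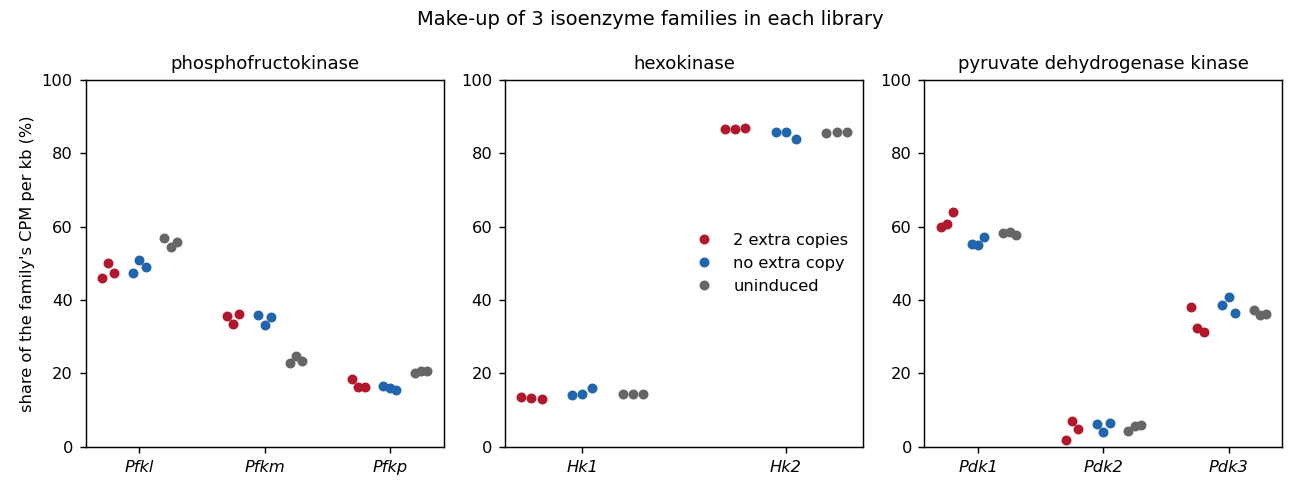
Share of the family's CPM per kb of exonic length (y axis, percent) of each isoenzyme of phosphofructokinase, hexokinase and pyruvate dehydrogenase kinase, with 1 point per library. The Pfkm share lies at 33.1% or more in both induced groups and at 24.7% or less in uninduced libraries, while the hexokinase shares lie close together.

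Genes next to the pathway were taken from a list of 47 transporters, alternative isoenzymes and enzymes of neighbouring routes, of which 38 were tested. With 2 extra copies against none 8 rose and 2 fell, with 2 extra copies against uninduced cells 5 rose and 7 fell, and with no extra copy against uninduced cells 1 rose and 9 fell. These were 26.3, 31.6 and 26.3% of the genes tested from the list, beside 16.0, 25.0 and 13.5% of all genes tested. In these 3 comparisons the list's median log2 change was 0.01, 0.02 and -0.04. With library size alone in the first of them 8 rose and 4 fell. Lactate dehydrogenase A, Ldha, which turns pyruvate into lactate, had 912, 941 and 959 CPM with 2 extra copies, 608, 594 and 597 CPM with no extra copy, and 831, 777 and 828.5 CPM in uninduced cells. The 3 groups did not overlap, and log2 changes were 0.65 ± 0.04 with 2 extra copies against none, 0.21 ± 0.03 with 2 extra copies against uninduced cells and -0.44 ± 0.04 with no extra copy against uninduced cells (adjusted p = 3.38e-15, 2.46e-05 and 2.15e-11).

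Of the 4 transporter genes tested, the 2 glucose transporters fell in all 3 comparisons, and the 2 lactate transporters rose with 2 extra copies against none. The glucose transporter Slc2a1 had 356, 402 and 407 CPM with 2 extra copies, 459, 507 and 475 CPM with no extra copy, and 744.5, 704 and 737 CPM in uninduced cells, without overlap. Its log2 changes were -0.31 ± 0.05, -0.91 ± 0.05 and -0.60 ± 0.04 in the 3 comparisons (adjusted p = 7.39e-05, 5.02e-12 and 3.36e-09). Slc2a3, the neuronal-type glucose transporter, had 660.5, 671 and 653 CPM, then 757, 745 and 741 CPM, then 872, 786 and 842 CPM in the same order of groups (log2 -0.18 ± 0.04, -0.33 ± 0.04 and -0.16 ± 0.04, adjusted p = 0.000682, 1.41e-08 and 0.0024). The lactate exporter Slc16a3 had 46.5 ± 2.10 CPM with 2 extra copies, 36.25 ± 1.83 CPM with none and 65.3 ± 5.98 CPM in uninduced cells (SD, n = 3 each). It thus rose with 2 extra copies against none (log2 0.36 ± 0.08, adjusted p = 0.0021) and fell against uninduced cells in both induced groups (log2 -0.49 ± 0.07 and -0.85 ± 0.08, adjusted p = 4.16e-06 and 2.86e-10). Slc16a1, which also carries lactate, averaged 165 ± 4.75, 146 ± 5.08 and 138.5 ± 5.17 CPM in the same order (SD, n = 3 each). It rose with 2 extra copies against none and against uninduced cells (log2 0.18 ± 0.05 and 0.26 ± 0.04, adjusted p = 0.00565 and 5.90e-05) and was not called with no extra copy against uninduced cells (log2 0.08 ± 0.05, adjusted p = 0.3). Prps1, which makes the nucleotide precursor PRPP from ribose 5-phosphate, rose with 2 extra copies against none by 0.35 ± 0.05 on the log2 scale (adjusted p = 2.35e-06), and its relative Prps2 by 0.25 ± 0.05 (adjusted p = 0.000625). Against uninduced cells Prps1 was not called with 2 extra copies (log2 0.10 ± 0.05, adjusted p = 0.0889) and fell with no extra copy (log2 -0.25 ± 0.05, adjusted p = 0.000295). Prps2 rose with 2 extra copies (log2 0.24 ± 0.05, adjusted p = 0.000483) and was not called with no extra copy (log2 -0.01 ± 0.05, adjusted p = 0.906). Mitochondrial Pck2, of gluconeogenesis, fell in both induced groups against uninduced cells (log2 -0.82 ± 0.06 and -0.86 ± 0.06, adjusted p = 7.57e-13 and 1.70e-13).

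Hypoxia-responsive genes outside glycolysis were read from a list of 25, of which 24 were tested. With 2 extra copies against none 2 rose and 2 fell, a count that became 0 with DESeq2 and 0 and 2 with library size alone. Without 1 library it ran from 0, without replicate 2 with 2 extra copies or replicate 3 with no extra copy, to 3. Against uninduced cells 2 rose and 13 fell with 2 extra copies, and 0 rose and 14 fell with no extra copy. In the 3 comparisons 16.7, 62.5 and 58.3% of the list were called, beside 16.0, 25.0 and 13.5% of all genes tested, so the share with 2 extra copies against none was near that of all genes. The list's median log2 change was 0.00, -0.27 and -0.32 in these 3 comparisons. Summed over the list, the level was 1318 to 1335 CPM with 2 extra copies, 1339 to 1370.0 CPM with no extra copy, and 1607 to 1791 CPM in uninduced libraries. Vegfa, a growth factor for vessels, had 40.0, 37.2 and 33.75 CPM, then 32.8, 33.05 and 34.5 CPM, then 67.5, 62.5 and 64.5 CPM in the same order of groups, so both induced groups lay below every uninduced library. For Ndrg1, Egln3, Ddit4 and Bnip3 the log2 change against uninduced cells was -1.54, -1.60, -1.19 and -1.67 when 2 copies were added, and -1.59, -1.42, -1.16 and -1.46 when none was. These genes and Vegfa were named for the smallest p of the list, so they do not stand for the whole list. The part of the listed genes in the differences of the glycolytic enzymes was not tested.

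**Figure D5:**
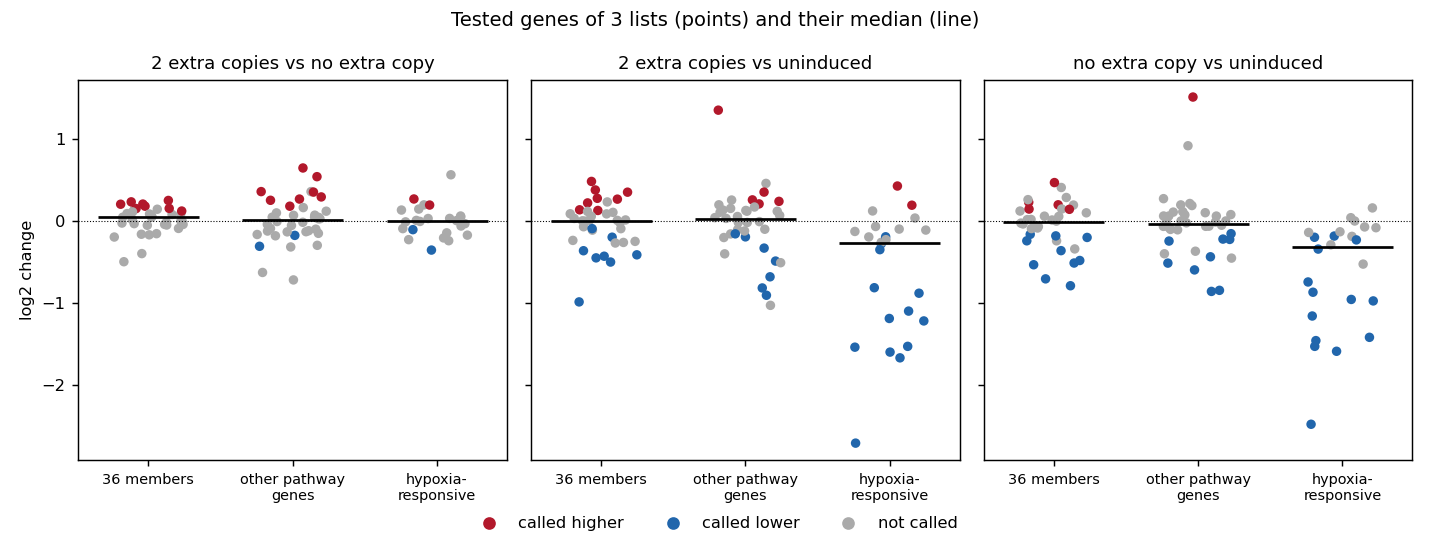
Log2 change (y axis) of every tested gene of 3 lists, with 1 point per gene and a line at the list's median, in the 3 comparisons. The hypoxia-responsive list lies lowest against uninduced cells in both induced groups, with medians of -0.27 and -0.32, and near 0 with 2 extra copies against none.

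The promoter matches were counted by direction of change. With 2 extra copies against uninduced cells ACGTG outside CACGTG was present for 3 of the 8 genes that fell, 1 of the 8 that rose and 5 of the 20 not called, and GCGTG for 3 of 8, 6 of 8 and 14 of 20. With 2 extra copies against none, 0 of the 8 genes that rose held CACGTG, 2 held ACGTG outside CACGTG and 6 held GCGTG. Among the 28 not called, 3 held CACGTG, 7 held ACGTG outside CACGTG and 17 held GCGTG. These counts are small, carry no test and say nothing of which factors were bound.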

How the data were processed

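In the deposited table each value is an expected count, which the authors made with RSEM 1.17 on GRCm38, annotation release 84, per the file headers and the notes of the submitters. Reads were single-end, 75 bp, per the labels. An aligner and the use of strand were not given in the labels or headers. RSEM apportions reads shared by similar transcripts, so near-identical genes can trade counts.

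The deposited counts were rounded and fitted with edgeR 4.0.16 (R 4.3.3; TMM scaling, filterByExpr by group, robust quasi-likelihood fit), with all 9 libraries and 1 coefficient per group. Every adjusted p is a Benjamini-Hochberg value over 13424 genes, which held 99.8% of the counts, and a gene was called below 0.05. Standard errors were obtained as |log2 change| over the root of the F statistic, and the common biological coefficient of variation was 0.0394. CPM were computed here after TMM scaling, and levels per kb use exonic lengths of GENCODE M21, which named 35432 of the 35771 rows. Close copies share at least 95% identity over at least 50% of a transcript (minimap2 2.31-r1302). Such genes were found for Eno1, Gapdh, Pgk1 and Pgls, and summing them left the counts of the other members unchanged. Alternatives were DESeq2 1.42.0, limma-voom 3.58.1, other scaling and filters, and each library left out. The members, gene lists and naming rules were chosen with earlier results of these data known. Any of the 36 genes could be named, called genes of the neighbouring list, and the 5 hypoxia-responsive genes with the smallest p.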

Additional observations from a re-analysis of the deposited data

How the results depend on the processing

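No called log2 change of the 36 genes changed sign under any alternative run. Over the 36 genes and 3 comparisons, 1876 alternative values kept their side of the threshold, 47 lost the call and 20 gained it. Calls among all genes fell with DESeq2 to 1075 with 2 extra copies against none, 1889 with 2 extra copies against uninduced cells and 806 with no extra copy against uninduced cells, in place of 2148, 3350 and 1811, while the 36 genes gave 7, 13 and 11 in place of 8, 16 and 15. In the same order of comparisons, leaving out 1 library gave 1397 to 2564, 2453 to 3719 and 1177 to 2201 calls among all genes, and 5 to 13, 14 to 16 and 11 to 15 among the 36. It gave 10 to 11, 10 to 15 and 9 to 11 among neighbouring pathway genes and 0 to 3, 14 to 16 and 11 to 14 among hypoxia-responsive genes. The low counts of 1397 and 1177 came without replicate 2 with no extra copy. For hypoxia-responsive genes with 2 extra copies against none, library size alone and limma-voom each gave 2 calls and DESeq2 gave 0, in place of 4. Same-numbered libraries did not deviate together (r of -0.0813 to 0.0807), so the numbers were not taken as pairs; with the replicate block 9, 17 and 15 of the 36 were called. With the trend over exonic length removed it was 10, 17 and 15. Pkm, Pgd, Pdk1 and Pgam1 each gained a call in that run, and Pfkm lost one. The trend is the correlation of log2 exonic length with a library's deviation from the mean of all 9. Its r was 0.0216, -0.13 and -0.163 in replicates 1 to 3 with 2 extra copies. It was -0.0295 to 0.0361 with no extra copy and 0.0632 to 0.16 in uninduced libraries. The causes were not tested. With totals of 4165286 to 8872303 counts, genes such as Pfkfb4, Mpc2, Pdk2 and Eno2, at 1.93 to 9.29 CPM per library, had standard errors of 0.18 to 0.33 on the log2 scale, so that small changes in them were not detectable at this depth.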
